A study of Mus musculus and Homo sapiens with 12 samples.

Results

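Histone butyrylation places a four-carbon acyl group, derived from the short-chain fatty acid butyrate, on lysines of histone tails, among them lysine 18 of histone H3 (H3K18bu) and lysine 12 of histone H4 (H4K12bu). Acylation of histone tails is best known at gene promoters and enhancers, where it goes with open chromatin. Exons make up a small part of a gene, are richer in GC than most introns, and are joined across splice junctions when the transcript is processed. The regions described here are the CCD841 butyryl regions that lay over exons and more than 1 kb from every gene start. Each gene was given 1 start, so some of these regions lay near the start of another annotated transcript.

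The study mapped butyryl marks by CUT&Tag, in which an antibody brings a transposase to the chromatin that carries the mark so that the neighbouring DNA is cut and tagged. CCD841 is a line from normal human colon epithelium, and its cells had been given 1 mM sodium butyrate (NaBu) for 12 h by the study's methods and for 12 to 16 h by the labels. Each mark had 2 libraries, H3K18bu replicates 1 and 2 and H4K12bu replicates 1 and 2, and nothing states that these came from separate cultures, so each p-value measures the spread between these libraries only. No untreated CCD841 library and no SW480 cancer library was analysed here, so no value describes a response to NaBu or a difference from cancer cells.

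All rows of the 4 deposited peak lists were merged into 547275 regions. Of these, 160182 had a row from both replicates of H3K18bu, of H4K12bu or of both marks and were kept, which means that they were chosen by the measured presence of peaks. The exonic regions are the 20455 kept regions (12.8%) that overlapped a GENCODE exon by at least 1 bp and lay more than 1 kb from every gene start. Rows of both H4K12bu replicates alone chose 10689 of them, rows of both H3K18bu replicates alone chose 5371, and 4395 had rows of both replicates of both marks. With the starts of all annotated transcripts left out, 6590, 3389 and 2602 were left in the same order. The exonic regions were 73 to 3327 bp wide with a median of 503 bp, their median distance to the nearest gene start was 11519 bp, and 51.9% of their bases were exonic. At the edge of the distance rule, 178 exonic regions lay 1002 to 1100 bp from a gene start and 191 exon-overlapping regions at 901 to 1000 bp were left out. A further 33574 regions over exons had rows from no more than 1 replicate of a mark and were left out as well.

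The lists do not give read totals. The pileup of a peak, which is the number of extended read ends over its summit, was therefore solved from the deposited fold and −log10 p. Its median over all rows was 15 and 12 for H3K18bu, against 15 and 7 for H4K12bu. H4K12bu replicate 2 thus stood apart as the shallowest library, with q below 0.05 in 56.3% of its rows against 100% in the other 3. The exonic shares and the comparisons between libraries are also given without it, while the counts by gene and the ratios by exon class need both H4K12bu replicates and are given only with it. At the exonic regions the median pileup was 17, 13, 21 and 9 in the same order, beside 17, 13, 15 and 7 at the other kept regions. A peak list does not tell apart a mark present in more cells from a mark that was denser in each cell.

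The label of the cells was set against marker genes. An H3K18bu region of both replicates lay within 1 kb of the start of 1 of 15 colon epithelial marker genes (VIL1, a microvillus protein), of 4 of 16 mesenchymal or fibroblast marker genes (ACTA2, COL1A2, FN1 and SPARC) and of 0 of 11 markers of other tissues, beside 31.5% of all protein-coding genes. The epithelial adhesion genes EPCAM and CDH1 and the intestinal transcription factor genes CDX1 and CDX2 had no such region at the start. An H4K12bu region of both replicates lay at the start of 2 of the 15 epithelial genes (the keratin genes KRT8 and KRT18), of 3 of the 16 mesenchymal genes (ACTA2, COL1A2 and SPARC) and of 0 of the 11 others, beside 15.3% of all protein-coding genes. KRT8 and KRT18 overlap on chromosome 12, so 1 region may have counted for both. The labelled cell type was thus marked by H3K18bu at few of its defining genes, while for H4K12bu the 2 of 15 lay near the share of all protein-coding genes. No expression values of these cells were analysed here.

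The splice junctions below belong to strongly marked internal coding exons that lay inside, or with at most a few bases outside, an exonic region, and they show what sequence sits under the peaks. Each window has 15 bases of intron and 15 bases of exon, read 5′ to 3′ on the gene's strand from GRCh38, with the exon in capitals. The first pair of genes was chosen by H3K18bu alone, the next by H4K12bu alone and the last by both marks.
NTNG2 exon 7, acceptor, chr9:132240895-132240924, plus strand: cccgtgtccgtccagAGTGTAACTGCAACC
NTNG2 exon 7, donor, chr9:132241030-132241059, plus strand: GCCAGGGCTGCTACCgtgagtgcgcgccgt
SLC28A1 exon 5, acceptor, chr15:84890428-84890457, plus strand: tggtcttgttcccagGAGGAACCTGCAGCC
SLC28A1 exon 5, donor, chr15:84890520-84890549, plus strand: GCCTGCTCTGCACTGgtgagcctggggccc
DDX56 exon 8, acceptor, chr7:44570114-44570143, minus strand: gagttatctctgcagGGCCTCTGATCCGGA
DDX56 exon 8, donor, chr7:44570000-44570029, minus strand: CCATCGAGCTGGCAGgtagtagtgtgacgg
PTPRF exon 29, acceptor, chr1:43619665-43619694, plus strand: cctgcctctcaatagTTGCTGGCCAGCTCC
PTPRF exon 29, donor, chr1:43619844-43619873, plus strand: CCTGGATGGTTATAGgtcagcatgcatgtc
AGPAT4 exon 5, acceptor, chr6:161153485-161153514, minus strand: cctccttccttccagTTCCTGATTCACTGT
AGPAT4 exon 5, donor, chr6:161153331-161153360, minus strand: GCTTGAGAAATGTAGgtaaggaagagtgcg
NNT exon 11, acceptor, chr5:43649132-43649161, plus strand: actctctttctctagGTCTCACAGGGATAC
NNT exon 11, donor, chr5:43649294-43649323, plus strand: CAAATGCAATCTCAGgtttgttcctctctt
All of the introns shown begin with gt and end with ag, the usual splice site letters. They are examples, and no comparison of the classes was made from them.

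At NTNG2, which encodes a membrane-anchored netrin, the region around exon 7 (chr9:132240698-132241463, 72.7% GC) had a pileup of 49 and 51 in the H3K18bu replicates and 15 in H4K12bu replicate 1, with no row in H4K12bu replicate 2. The corresponding folds over the local background were 8.35, 10.4 and 5.09. At SLC28A1, a nucleoside transporter gene, the region around exon 5 (chr15:84890048-84890731) had pileups of 47, 44 and 14 in the same 3 libraries. Both sites were chosen by the strength of their rows in both H3K18bu replicates, so the higher pileups of these libraries there are built into the choice. Pileups were not scaled for depth. A weaker H4K12bu peak was present in replicate 1 at both sites.

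At DDX56, an RNA helicase gene, the region that ends at exon 8 (chr7:44569188-44570140) had pileups of 84 and 31 in the H4K12bu replicates and no row in either H3K18bu library. At PTPRF, a receptor tyrosine phosphatase gene, the region around exon 29 (chr1:43619441-43620260) had pileups of 85 and 39 for H4K12bu and 14 in H3K18bu replicate 2 alone. The folds were 10.2 and 8.07 at DDX56 for H4K12bu and 5.35 and 6.13 at PTPRF, where H3K18bu replicate 2 had 4.60. These 2 genes were likewise chosen by their rows in both H4K12bu replicates, so the order of the marks is built in. Replicate 1 of H4K12bu had the highest pileup at both genes, but at PTPRF replicate 2 had the highest fold.

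AGPAT4, an acyltransferase gene of phospholipid synthesis, had the strongest exonic region of both marks. Its region around exon 5 (chr6:161152996-161154201) had pileups of 91 and 64 for H3K18bu, against 192 and 66 for H4K12bu, with folds of 9.07, 7.91, 9.25 and 7.77. NNT, the mitochondrial transhydrogenase gene, was marked around exon 11 (chr5:43648959-43650061) with pileups of 41, 23, 39 and 25, and its region had only 46.1% GC. At both genes the folds of the marks overlapped.

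The strongest exonic region of H3K18bu alone lay over the first exon of the canonical transcript of MICAL2 (chr11:12109955-12110780), an actin-oxidising enzyme gene, 15947 bp from the nearest gene start. It thus lay at the start of that transcript, which is not the start used for the gene. It had pileups of 56 and 57 for H3K18bu and 23 in H4K12bu replicate 1. DHRS12, a dehydrogenase family gene, and FSTL3, which encodes a secreted antagonist of activin, completed the leading 5 with lower −log10 p values of 27.2 and 25.5. All of the leading 5 regions of H3K18bu alone also had a row in H4K12bu replicate 1 and none in replicate 2. For H4K12bu alone the leading 5 were at POLR2J3, DDX56, PTPRF, THOP1 and SMPD4, with lower −log10 p values of 30.4 to 17.8, and DDX56 and SMPD4 had no H3K18bu row. POLR2J3 belongs to a group of near-identical RNA polymerase II subunit genes and SMPD4 has pseudogene copies, so these peaks cannot be assigned with certainty to the named gene. For both marks, LPCAT1, WDR27 and ASAP2 joined AGPAT4 and NNT.

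H4K12bu regions lay over exons more often than H3K18bu regions. Among kept regions, 20.4% of those of H4K12bu alone were exonic, against 7.71% of those of H3K18bu alone and 11.5% of those of both marks. H4K12bu alone accounted for 52.3% of the exonic regions but for 32.7% of all kept regions, H3K18bu alone for 26.3% against 43.5%, and both marks for 21.5% against 23.8%. The share within 1 kb of a gene start went the other way, at 5.58% for H4K12bu alone and 10.1% for H3K18bu alone. Introns held 60.2% and 51.1%, and regions between genes made up 13.8% and 31.1%, so that H4K12bu alone had the larger share within introns as well. Since the presence of peaks chose the regions, these shares are a description with no test. The counts of exonic regions depended on the rows and libraries that entered. With q below 0.01, where fewer rows of the shallow library entered, those of H3K18bu alone (7258) outnumbered those of H4K12bu alone (4448). The exonic shares of the kept regions were then 8.22% and 23.2%. The order of the counts also turned without H3K18bu replicate 1 (11917 against 9110) and without H3K18bu replicate 2 (11106 against 9199). Without H4K12bu replicate 2, the exonic shares were 7.11% for H3K18bu alone and 16.0% for H4K12bu alone, and without H4K12bu replicate 1 they were 7.53% and 10.8%.

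An exonic region of one mark alone could still carry a peak of the other mark in a single replicate. Of the exonic regions of H3K18bu alone, 32.1% had a row in H4K12bu replicate 1 and 18.6% in replicate 2. Of those of H4K12bu alone, 13.6% had a row in H3K18bu replicate 1 and 14.7% in replicate 2. In all, 50.7% of the former and 28.3% of the latter had a row of the other mark, so the classes are not a clean separation of the marks.

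The comparison by library used each library's own merged regions. H3K18bu replicates 1 and 2 had 7.69% and 7.39% of their regions over exons, and H4K12bu replicates 1 and 2 had 13.7% and 9.92%. The groups did not overlap, and the means were 7.54% ± 0.212 and 11.8% ± 2.65 (SD, n = 2 libraries each), a difference of 4.25 percentage points (two-sided exact permutation test, p = 0.333). The difference was 6.13 points without the shallow library and 2.38 points without H4K12bu replicate 1, so its size rested on replicate 1. With 2 libraries against 2, 0.333 is the smallest p that the 6 assignments allow, so none of these comparisons can pass 0.05.

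**Figure D1:**
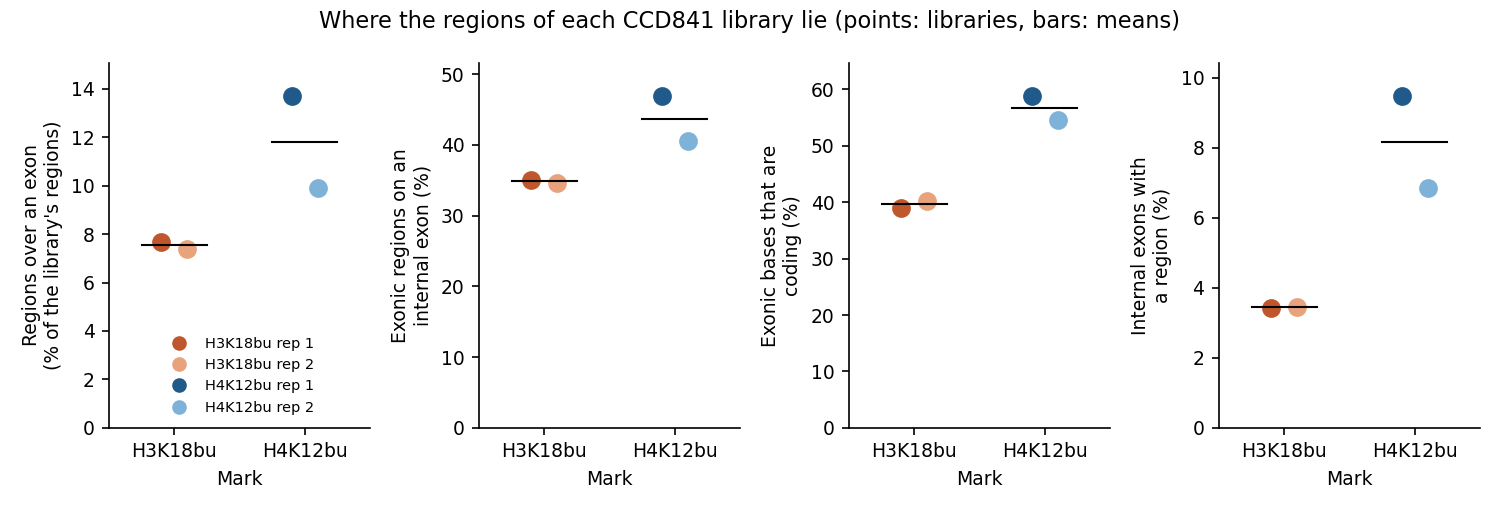
Each panel plots 1 measure on the y axis in percent for the 4 CCD841 libraries, with points for libraries and bars for the mean of each mark. Both H4K12bu libraries lie above both H3K18bu libraries in every panel, and H4K12bu replicate 2 lies closer to H3K18bu than replicate 1 does.

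Internal exons, which have an intron on each side, took a larger share of the H4K12bu than of the H3K18bu regions. Of a library's exonic regions, 35.1% and 34.6% for H3K18bu, against 46.9% and 40.5% for H4K12bu had their largest overlap with an internal exon of a canonical transcript. The means were 34.9% ± 0.363 and 43.7% ± 4.54 (SD, n = 2, exact permutation p = 0.333), a difference of 8.82 points that stood at 5.61 without H4K12bu replicate 1. Among the exonic regions with rows of both replicates, 15256 overlapped a canonical exon. Internal exons held 69.9% of those of H4K12bu alone, 54.3% of those of H3K18bu alone and 61.7% of those of both marks. Last exons held 28.2%, 33.4% and 29.4%. Of the 222011 canonical exons away from gene starts, internal exons make up 84.6% by number and 38.9% by bases. Last exons number 31111 and make up 59.8% of the bases, so in each class the internal share of the regions lay below that by number and above that by bases.

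First exons showed the opposite order. They held 347 of 3726 regions of H3K18bu alone (9.31%), 211 of 3060 of both marks (6.90%) and 77 of 8470 of H4K12bu alone (0.909%). First exons that lie more than 1 kb from every gene start make up 1.34% of the canonical exons away from gene starts. That set leaves out each exon that reaches within 1 kb of a gene start. A region could lie on the far part of such an exon, so the shares are not like for like. The same holds for the shares of internal and last exons above. When the starts of all annotated transcripts were left out, 3389 exonic regions of H3K18bu alone and 6590 of H4K12bu alone were left, and the exonic share still stood at 4.86% against 12.6%.

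The remaining 5199 exonic regions lay over exons of other transcripts only. They were 30.6% of the regions of H3K18bu alone, 30.4% of those of both marks and 20.8% of those of H4K12bu alone. Where a canonical exon was present, it belonged to a protein-coding gene in 93.2% of the regions of H4K12bu alone, 76.7% of those of H3K18bu alone and 83.9% of those of both marks. Exons of long noncoding RNA genes held 4.77%, 18.2% and 12.4%.

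The exonic sequence under H4K12bu was coding more often than that under H3K18bu. Of the canonical exon bases under a library's exonic regions, 39.0% and 40.2% were coding for H3K18bu, against 58.8% and 54.5% for H4K12bu. The means were 39.6% ± 0.911 and 56.6% ± 3.08 (SD, n = 2, exact permutation p = 0.333), and the groups did not overlap. Among the exonic regions at protein-coding genes, the assigned exon was mostly coding in 80.8% of 7890 regions of H4K12bu alone, in 66.2% of 2856 of H3K18bu alone and in 72.4% of 2568 of both marks. A 3′ UTR was the larger part in 1422 of those of H4K12bu alone, 664 (23.2%) of H3K18bu alone and 519 (20.2%) of both marks. A 5′ UTR was the larger part in 1.20%, 10.6% and 7.44%. By bases away from gene starts, canonical protein-coding exons are 47.4% coding, 50.8% 3′ UTR and 1.79% 5′ UTR. The exonic bases of the regions of H3K18bu alone were close to that make-up for the coding part, at 48.6%, and those of H4K12bu alone were above it, at 67.0%.

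The share of coding exon bases under a region was set against that of introns in the same kind of gene. Regions covered 2.57% and 2.42% of the coding bases with H3K18bu, beside 2.59% and 2.40% of the intron bases of protein-coding genes. They covered 8.12% and 4.55% of the coding bases with H4K12bu, beside 3.23% and 2.34% of the intron bases. The ratio of coding to intron coverage was thus 0.992 and 1.01 for H3K18bu, against 2.51 and 1.94 for H4K12bu. For 3′ UTR bases the ratio to introns was 0.767 and 0.728 for H3K18bu, against 1.20 and 1.01 for H4K12bu. For 5′ UTR bases, coverage was 7.16% and 7.29% for H3K18bu, against 5.49% and 3.23% for H4K12bu, so that the order of the marks was reversed there. Exons of long noncoding RNA genes outside protein-coding genes were also covered more by H3K18bu, at 2.48% and 2.17%, than by H4K12bu, at 1.65% and 1.45%.

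GC content went along with coverage in all 4 libraries. The exonic regions had a median GC content of 55.9% for H3K18bu alone, 57.3% for H4K12bu alone and 56.0% for both marks, against 51.1%, 51.3% and 51.9% at the other kept regions of the same classes. The internal exons of protein-coding genes were therefore binned by GC. A region lay over 0.725%, 0.782%, 2.01% and 2.21% of the exons with 40 to 44% GC, in the order H3K18bu replicates 1 and 2 and H4K12bu replicates 1 and 2. It lay over 7.83%, 7.68%, 21.5% and 14.1% of those with 60 to 64% GC. Exons with a region in both replicates were 1.98 to 2.35 times as many for H4K12bu as for H3K18bu in the bins from 35% GC upward. GC also changes how DNA is tagged, amplified and aligned, and its part in these values was not tested.

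In tiles of 1 kb inside protein-coding genes, tiles with a coding exon were compared with intron-only tiles of the same GC content. Between 30 and 70% GC, H3K18bu regions covered 0.494 to 0.614 times as much of the tiles with a coding exon as of the intron-only tiles, in every GC bin and both replicates. For H4K12bu the same ratio was 1.03 to 1.51 in replicate 1 and 0.914 to 1.28 in replicate 2. At 55 to 60% GC, for example, tiles with a coding exon were covered at 5.84%, 5.20%, 14.2% and 7.66%, and intron-only tiles at 11.8%, 10.5%, 13.6% and 8.13%. At a given GC content, H3K18bu thus covered tiles with a coding exon less than intron-only tiles in both libraries, while for H4K12bu the direction varied with the library and the bin. Before the split by GC, the ratios were 0.859 and 0.865 for H3K18bu, against 1.92 and 1.55 for H4K12bu.

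**Figure D2:**
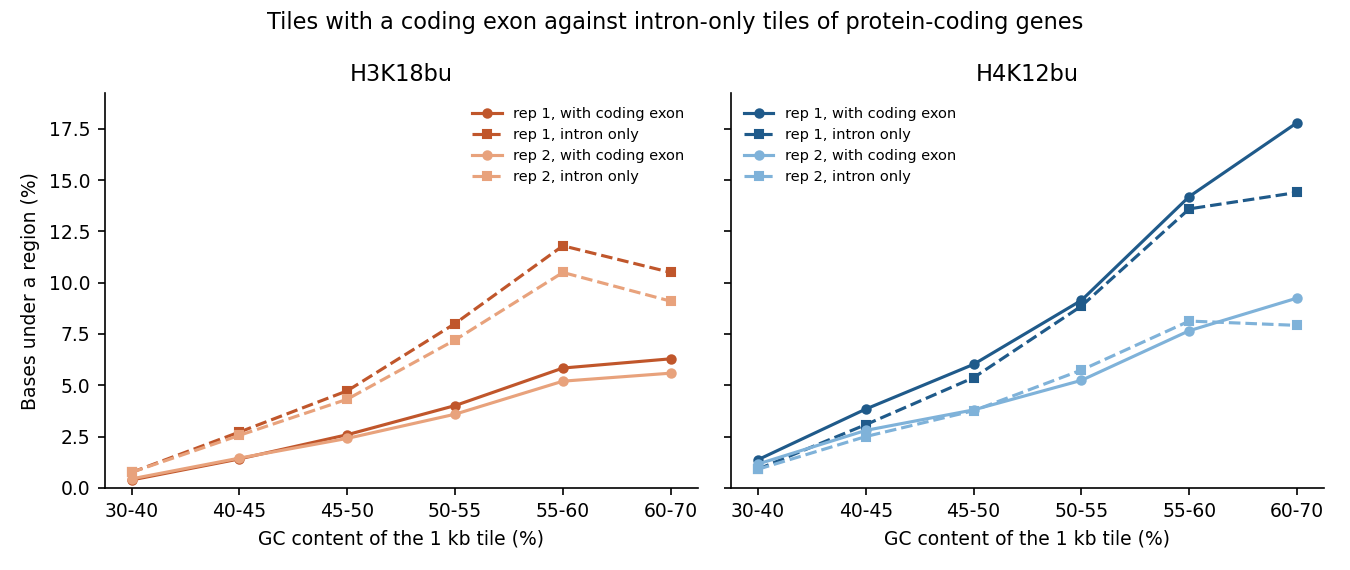
The y axis gives the percent of tile bases under a region and the x axis the GC content of 1 kb tiles in percent, with solid lines for tiles with a coding exon and dashed lines for intron-only tiles, 1 line per library. The H3K18bu lines of tiles with a coding exon run below the intron-only lines in every bin, from 0.494 to 0.614 times as high, while those of H4K12bu run from 0.914 to 1.51 times as high.

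Of 161656 internal exons of protein-coding genes away from gene starts, a region of the library lay over 3.43% and 3.45% for H3K18bu, against 9.47% and 6.86% for H4K12bu. The means were 3.44% ± 0.00962 and 8.16% ± 1.85 (SD, n = 2, exact permutation p = 0.333). Exonic regions with rows of both replicates lay over 2.68% of these exons for H3K18bu and 6.15% for H4K12bu. Both H4K12bu libraries were above both H3K18bu libraries, with a difference of 4.72 percentage points that was 6.03 without the shallow library and 3.42 without H4K12bu replicate 1. With q below 0.01 the groups overlapped, at means of 3.44% and 5.89% (exact permutation p = 1).

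Longer exons carried a region more often. From exons under 80 bases to exons of 1000 bases or more, the share with a region went from 2.35% to 17.9% and from 2.31% to 19.0% with H3K18bu, and from 5.89% to 40.8% and from 3.59% to 42.2% in the H4K12bu replicates. A longer exon gives more bases for an overlap, so a rise is built into the measure. The ratio of H4K12bu to H3K18bu among exons with regions of both replicates was 1.97 in the shortest class, 2.40 at 120 to 159 bases and 2.88 at 1000 bases or more. The median length of the internal exons under a library's regions was 146 and 149 bases for H3K18bu and 153 in each H4K12bu library, a difference of 5.50 bases (exact permutation p = 0.333), beside 123 bases for all internal exons. When at least 50 bp of exon was required, the groups overlapped (p = 0.667, exact permutation). Exons of 1000 bases or more held 5.53% of the internal-exon regions of H4K12bu alone at protein-coding genes and 3.05% of those of H3K18bu alone, beside 0.691% of all internal exons. Last exons under a region had a median length of 2844 bases for H4K12bu alone and 3515 bases for H3K18bu alone, beside 1430 bases for all last exons.

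**Figure D3:**
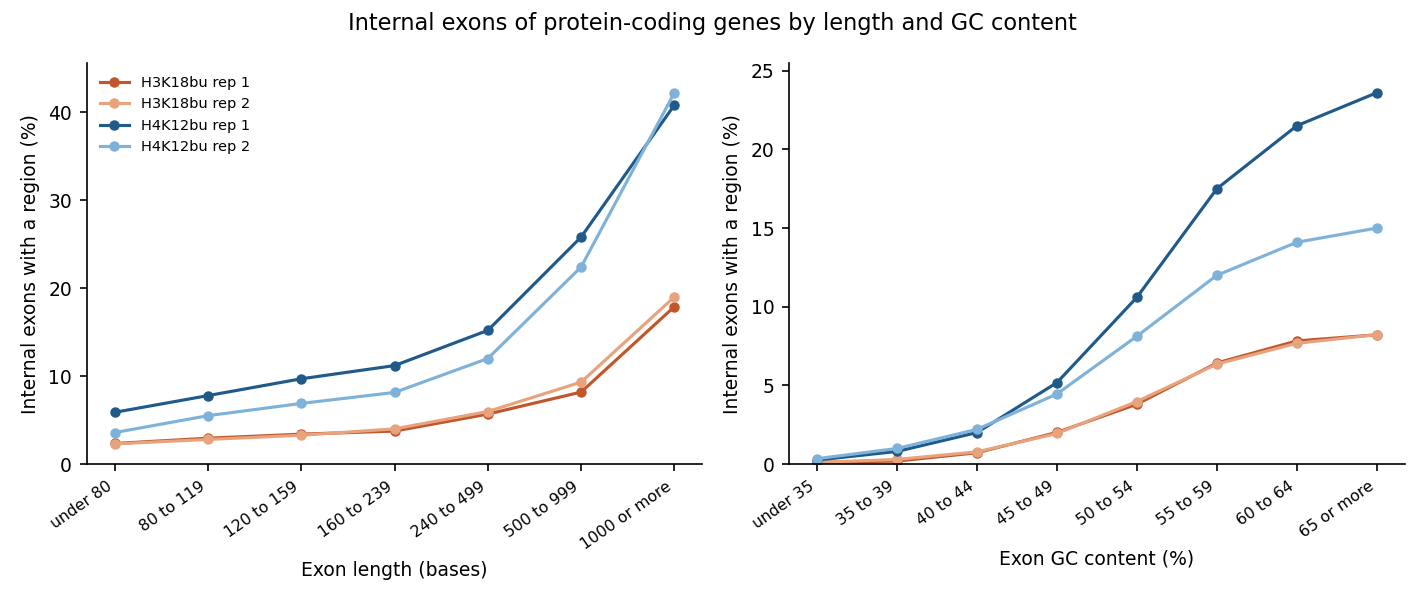
The y axes give the percent of internal exons of protein-coding genes under a region of each library, by exon length in bases on the left and by GC content in percent on the right. All 4 lines rise with length and with GC content, and both H4K12bu lines lie above both H3K18bu lines in every class.

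The difference between the marks was larger at closely spaced exons. Exons whose shorter flanking intron was under 250 bases had a region in 3.85% and 3.87% of cases for H3K18bu, against 14.7% and 9.29% for H4K12bu. Exons whose shorter flanking intron was 5000 bases or more had one in 3.35% and 3.48% and in 6.51% and 5.75%. With rows of both replicates, the ratio of H4K12bu to H3K18bu fell from 3.08 in the first class to 1.68 in the second. The median GC content of these exons also differed, at 55.4% and 46.3%, and was not separated from spacing here.

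Around the centres of internal coding exons of 100 to under 200 bases, the profile depended on the spacing. For 26002 exons with both flanking introns under 1.5 kb, H4K12bu regions lay over the centre in 10.4% and 5.42% of cases, 1.41 and 1.32 times the mean of the positions 1400 to 1500 bases away on either side. For H3K18bu the centre stood at 2.53% and 2.52%, 0.988 and 1.05 times the same positions, with a highest value of 3.03% and 2.97% at 100 to 150 bases downstream. The H4K12bu profiles were also highest downstream, at 12.0% and 6.45%. Peak summits were fewer at the centre of these exons than 200 bases to each side. They stood at 0.804 and 0.883 times for H4K12bu and 0.718 and 0.694 times for H3K18bu. For 6720 exons with both flanking introns of at least 5 kb, the centre stood at 2.32% and 2.44% for H3K18bu, against 4.23% and 2.77% for H4K12bu, 0.885 and 0.937 and 1.04 and 0.970 times the far positions. Summits at their centre were 1.34 and 1.28 times those 200 bases to each side for H3K18bu, and 1.23 and 1.25 times for H4K12bu. Close to these exons all 4 libraries stood higher at 100 bases downstream than at 100 bases upstream, at 2.31%, 2.26%, 4.46% and 2.98% against 1.85%, 1.99%, 3.36% and 2.07%. At the far positions H3K18bu was instead higher upstream, at 3.12% and 3.16% against 2.12% and 2.05% downstream. H4K12bu stood there at 4.07% and 2.72% upstream and at 4.05% and 2.99% downstream.

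**Figure D4:**
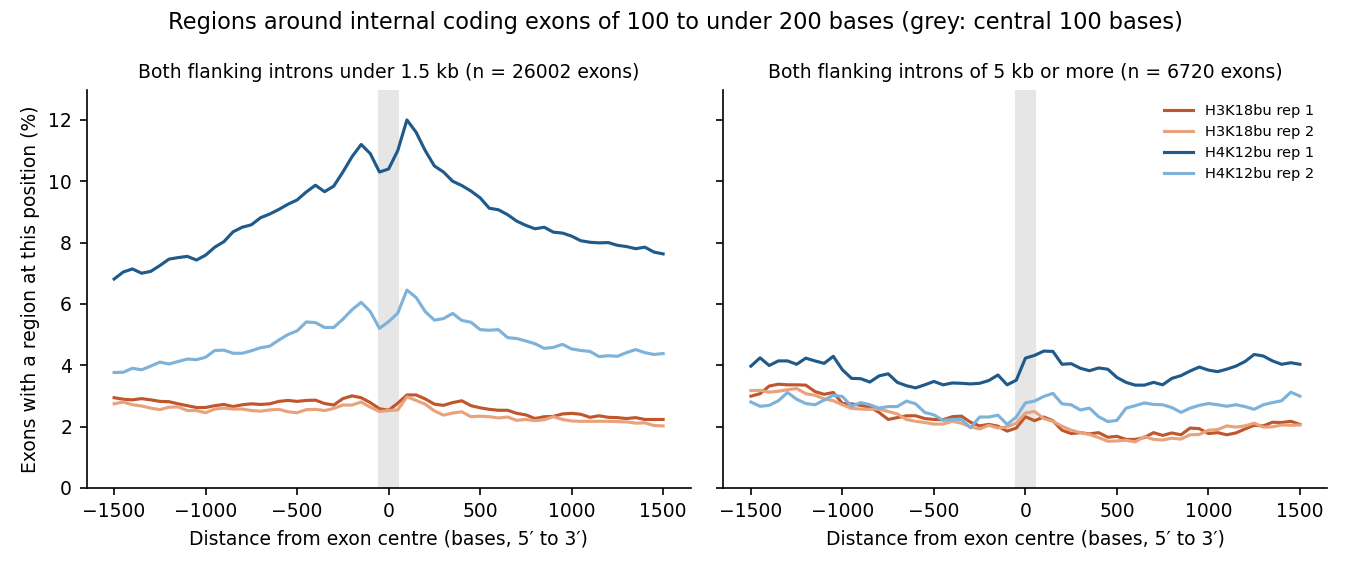
The y axis gives the percent of exons with a region at each distance in bases from the exon centre, for closely spaced exons on the left and isolated exons on the right, 1 line per library. The H4K12bu lines rise to 12.0% and 6.45% at 100 bases downstream of the centre of closely spaced exons, while at isolated exons the line of H4K12bu replicate 1 goes from 3.36% at 100 bases upstream to 4.46% at 100 bases downstream.

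The position along the gene differed little between the marks, and its direction depended on the setting. The median midpoint of a library's exonic regions lay at 79.8% and 79.4% of the gene's length for H3K18bu, against 78.8% and 80.1% for H4K12bu, with a difference of −0.142 percentage points (exact permutation p = 1.00) and overlapping groups. Under some alternatives the libraries of the marks did not overlap: H4K12bu then lay closer to the gene start with starts within 3 kb left out (−1.77) or the summit in the exon (−1.76), and farther from it with the 100000 strongest rows (0.994). For regions on internal exons of protein-coding genes the median position was 65.7% for H3K18bu alone, 68.5% for H4K12bu alone and 70.6% for both marks, beside 63.8% for all internal exons. The first 10% of the gene held 2.64%, 1.12% and 1.41% of these regions, beside 3.26% of all internal exons, and the last 10% held 14.5%, 14.8% and 17.9%, beside 12.9%.

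The exons were then split by whether the start of their gene carried H3K18bu, which means a region of both H3K18bu replicates within 1 kb, as at 6305 protein-coding genes (31.5%). Their internal exons had a region in 3.12% and 3.11% of cases for H3K18bu, against 8.91% and 6.57% for H4K12bu, beside 3.60% and 3.63% and 9.78% and 7.01% in the other genes. Their exons were poorer in GC, with a median of 46.3% against 50.9%. Within bins of GC this order was not kept. Among exons of 55 to 65% GC, the shares were 7.92%, 7.54%, 22.3% and 14.8% with H3K18bu at the start and 6.71%, 6.71%, 18.1% and 12.2% without, in the order of the libraries. At 45 to 55% GC all 4 libraries were likewise higher with H3K18bu at the start. At 35 to 45% GC this held for 3 libraries, while H3K18bu replicate 1 had 0.508% with and 0.521% without.

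At least 1 exonic region was assigned to a canonical exon of 7219 of 20033 protein-coding genes. Regions with rows of both H3K18bu replicates lay in 3786 genes (18.9%) and those with rows of both H4K12bu replicates in 5938 (29.6%). The 2505 genes with both were 66.2% of the H3K18bu genes and 42.2% of the H4K12bu genes. H4K12bu had more exonic regions than H3K18bu in 4347 genes, fewer in 1687 and as many in 1185. Genes with an exonic region of H4K12bu had a median length of 42.1 kb and those of H3K18bu of 54.3 kb, each with a median of 12 exons, beside 27.5 kb and 8 exons for all protein-coding genes.

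The genes with the most exonic H4K12bu regions were mostly large genes with many exons. TNRC18 (chromosome 7, 5306790 to 5425414) had 14 regions for H4K12bu and 2 for H3K18bu, and DNHD1, a gene of the dynein heavy chain family (chromosome 11, 6497260 to 6593758), had 14 and 6. HSPG2, which encodes the basement membrane proteoglycan perlecan, had 12 and 1. COL5A1 (a fibrillar collagen chain), DLG5 (a scaffold of cell junctions), UBR4 (a ubiquitin ligase), PCNT (the centrosome protein pericentrin) and MPRIP (a partner of myosin phosphatase) each had 11, beside 0 to 2 for H3K18bu. HERC2, a ubiquitin ligase gene with several partial copies in the genome, had 10 and 2, and its count is uncertain for that reason. It was 1 of 8 genes tied at 10 H4K12bu regions, and was listed because of the number of different exons covered and then the order of symbols.

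PCNT showed the contrast in each library. On its own, H4K12bu replicates 1 and 2 each had 12 exonic regions at PCNT, and neither H3K18bu replicate had any. UBR4 had 21 and 18 in the H4K12bu replicates and 2 in each H3K18bu replicate. TNRC18 had 15 and 18 against 1 and 2. The groups did not overlap at any of these 3 genes, which the rule chose for their counts, so no test was made.

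The genes with the most exonic H3K18bu regions were a gene without a symbol on chromosome 16 (ENSG00000188897, 11359845 to 11527247, 9 regions for H3K18bu and 6 for H4K12bu) and PKD1L2, of the polycystin family (9 and 2). DYSF, which encodes the membrane repair protein dysferlin (chromosome 2, 71453561 to 71686763), had 8 and 0. Its own regions numbered 8 in each H3K18bu replicate and 3 and 2 in the H4K12bu replicates. ALPK3, a kinase gene of heart muscle, had 8 and 1, with 9 and 10 regions for H3K18bu, against 2 and 4 for H4K12bu. PKD1L1 had 8 and 6, SLIT1 (an axon guidance ligand) 8 and 4, PLEKHG4B 8 and 4, and MYO15B (an unconventional myosin gene) 7 and 3. SYNE1, which encodes a spectrin-repeat protein of the nuclear envelope, had 8 for H3K18bu and 10 for H4K12bu, and COL27A1, a collagen gene, 7 and 9. COL27A1 and MYO15B were 2 of 5 genes tied at 7 H3K18bu regions. At DYSF, ALPK3 and PKD1L2 the H3K18bu libraries were above the H4K12bu libraries, and at SYNE1 and COL27A1 they were not. The rule chose these genes for their H3K18bu counts, so the order of the libraries is a description and no test was made.

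**Figure D5:**
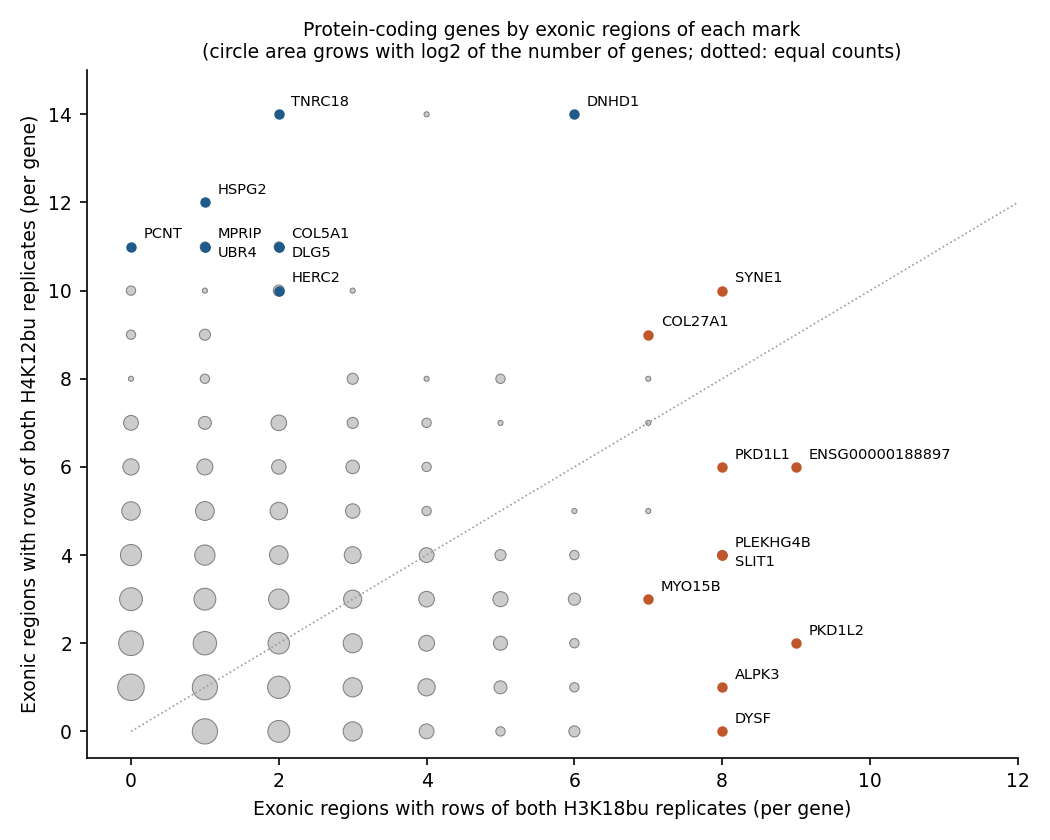
The x and y axes count the exonic regions per protein-coding gene with rows of both replicates of H3K18bu and of H4K12bu, grey circles stand for numbers of genes, and coloured points mark the named genes among the 10 listed for H3K18bu (orange) and for H4K12bu (blue), with ties in the last place broken by the number of different exons covered. The named genes with the most H4K12bu regions reach 14 and have at most 6 of H3K18bu, while those with the most H3K18bu regions spread from 0 (DYSF) to 10 (SYNE1) of H4K12bu.

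Fixed gene lists were read against all protein-coding genes, of which 18.9% had an exonic H3K18bu region and 29.6% an exonic H4K12bu region. Genes of cell junctions and matrix adhesion had one in 16 of 38 cases for H3K18bu (42.1%) and 27 of 38 for H4K12bu (71.1%), with a median of 2 exonic regions per gene against 0 for all genes. Their internal exons were under H4K12bu regions in 12.2% of 912 cases and under H3K18bu regions in 3.62%, beside 6.15% and 2.68% for all genes. TNS1, which encodes the focal adhesion protein tensin, had 10 H4K12bu and 1 H3K18bu regions, and ITGA3, an integrin chain gene, had 7 and 2. TLN1, which encodes the talin that links integrins to actin, had 6 and 0. LAMA3, which encodes a chain of the epithelial laminin, went the other way with 2 and 4. At LAMA3 neither H4K12bu library had a region of its own over an exon, since a merged region can reach an exon with the peak of 1 mark and hold the peak of the other beside it. In all, 22 genes of the list had more H4K12bu and 3 more H3K18bu regions.

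Splicing factor genes had few exonic H3K18bu regions. Only HNRNPL, SRRM1 and SRSF5 of 37 had a region of both H3K18bu replicates (8.11%), and 13 had one of H4K12bu (35.1%). Of their 376 internal exons, 0 were under an H3K18bu exonic region and 8.78% were under an H4K12bu one. PRPF8 and SNRNP200, which encode core proteins of the spliceosome, had 5 H4K12bu and 0 H3K18bu regions each, and U2AF2, which encodes the factor that binds the pyrimidine run before an acceptor, had 4 and 0. At SNRNP200 the single libraries had 10 and 8 regions for H4K12bu and none for H3K18bu.

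Of 36 genes with very long exons, 29 had an exonic H4K12bu region (80.6%) and 22 an H3K18bu one (61.1%). KMT2D, a histone methyltransferase gene, had 7 and 1, LRP1, an endocytic receptor gene, 6 and 1, and MACF1, which crosslinks actin and microtubules, 8 and 3. SYNE2 (3 and 6) and HMCN1 (1 and 4) had more of H3K18bu. Per exon the list stood near the background, with 5.67% of its 2062 internal exons under H4K12bu and 1.99% under H3K18bu. Numbered zinc finger genes had 9.05% of 1525 internal exons under H4K12bu and 2.16% under H3K18bu, beside 6.15% and 2.68% for all genes. Of the 476 genes, 111 (23.3%) and 40 (8.40%) were marked, below the 29.6% and 18.9% of all protein-coding genes.

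Of 44 collagen genes, 26 had an exonic H3K18bu region (59.1%) and 24 an H4K12bu one (54.5%). Per exon these genes stood near the background, with 3.21% of their 1899 internal exons under H3K18bu and 5.11% under H4K12bu, beside 2.68% and 6.15% for all genes. COL5A1 (11 for H4K12bu and 2 for H3K18bu), COL18A1 (7 and 0), COL4A2 (7 and 2) and COL6A3 (6 and 1) carried mostly H4K12bu. COL15A1 (4 and 6), COL4A4 (0 and 3), COL26A1 (0 and 2) and COL2A1, the cartilage collagen gene (0 and 2), carried more H3K18bu. Among 16 mesenchymal or fibroblast marker genes, 8 had exonic H3K18bu and 8 exonic H4K12bu, led by FN1 (5 H4K12bu and 1 H3K18bu regions), while 3 of 15 colon epithelial marker genes had each mark, led by VIL1 (1 and 2). Of the 299 internal exons of the mesenchymal list, 2.01% were under H3K18bu and 6.69% under H4K12bu, again near the background, and of the 94 of the epithelial list 6.38% and 3.19%. Of 11 markers of other tissues, 2 had exonic H3K18bu and 1 exonic H4K12bu. Of 53 clustered protocadherin genes, 0 and 2 had a region, and of 400 olfactory receptor genes, 18 (4.50%) and 26 (6.50%). These 2 lists have only 74 and 58 internal exons. Many protocadherin genes also share their end, and each region was assigned to 1 gene, so low counts per gene are partly built in.

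Of the 14 genes relevant to colorectal cancer that the study follows, 7 had exonic H3K18bu and 9 exonic H4K12bu. SMAD2, a transducer of TGF-β signals, had 3 H4K12bu and 2 H3K18bu regions, and TGFBR2, a receptor of that pathway, had 2 and 1. CTNNB1, the β-catenin gene, LEF1, TCF20 and FOSL2 had 1 of each mark, SMAD3, FOSL1 and MYC had 1 of H4K12bu alone, and KLF5 had 1 of H3K18bu alone. These are counts of merged regions. At LEF1 neither mark had a region of its own over an exon in replicate 1, and at TCF20 H3K18bu replicate 1 had none. FOS, JUN, JUNB and KLF14 had no region with rows of both replicates of either mark over a canonical exon away from gene starts. FOS has 4 canonical exons and the others 1 each, so the rule left little exon sequence there. Within 1 kb of the gene start, FOS and JUN had an H3K18bu region of both replicates and JUN also an H4K12bu one. JUNB and KLF14 had neither. Single libraries had 1 exonic region at FOS (H4K12bu replicate 2) and at JUNB and KLF14 (H3K18bu replicate 2). With lists this short, the counts say which genes had an exonic region by this rule and no more.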

How the data were processed

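CUT&Tag libraries of NaBu-treated CCD841 cells were used, 2 per mark, and 8 mouse libraries were not used here. The authors aligned reads to GRCh38.p13 with Bowtie2 (2.3.1 in the submitters' processing notes) and called peaks with MACS2 (2.1.0) in each library on its own, without a control library, in the ENCODE ATAC-seq pipeline. Their p threshold was 0.01, and the peak limit of 300000 fixed the length of the deposited lists at 299296 to 299720 rows. For each peak the authors deposited the fold ratio against local background, with −log10 p and −log10 q values. All of these rank peaks within 1 library, and without counts no count model was fitted.

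Rows were merged over the 4 lists, and regions were matched by at least 1 bp to GENCODE 44 exons on GRCh38. No row lay past the end of a chromosome. A region was assigned to the canonical exon of largest overlap. Pileups were solved from the fold and −log10 p, with a match within 0.01 for at least 99.9997% of rows in each library, and 2 rows with a summit past their end were given their midpoint. Interval steps equalled bedtools 2.31.1 on simulated regions. Tables were handled in pandas 2.3.3 under Python 3.11.15, and exact tests went through all assignments with numpy 2.4.6. Pileups were solved with scipy 1.17.1, and plots used matplotlib 3.10.9. The named genes are the 10 with the most exonic regions of each mark (ties broken by the number of different exons covered, then by symbol), the genes of the 5 strongest regions of each class by the lower −log10 p of the replicates, and genes of the fixed lists, and some genes that the rule names are not reported here. The members and lists were chosen with earlier results of these data known. Alternatives were the q threshold, the strongest rows, the overlap, the start rule, the exon set and leaving out each library.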

Additional observations from a re-analysis of the deposited data

How the results depend on the processing

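The differences between the marks in exonic share, internal exons, coding sequence, exon length and internal exons with a region kept the sign of their mean difference under every alternative run. The libraries of the marks nevertheless overlapped for internal exons with a region with q below 0.01 (difference 2.45, exact permutation p = 1) and for exon length with 50 bp of exon (6.5 bases, p = 0.667). Leaving out 1 library at a time, they ranged from 2.38 to 6.13 percentage points for the exonic share, from 5.61 to 12.0 for the share on internal exons, from 14.9 to 19.2 for the coding share, from 4 to 7 bases for exon length and from 3.42 to 6.03 percentage points for internal exons with a region. The difference in position along the gene ranged from −0.756 to 0.472 and changed sign without H3K18bu replicate 1 (0.0783) and without H4K12bu replicate 1 (0.472), with the 100000 strongest rows of each library (0.994) and with protein-coding exons only (0.814). It was further from the main −0.142 with starts within 3 kb (−1.77), the summit in the exon (−1.76) and away from all transcript starts (−1.24). The libraries of the marks did not overlap in these, with the strongest rows, with q below 0.01 (−0.518) or without H4K12bu replicate 2. They did not overlap without H4K12bu replicate 1 either, where H4K12bu lay farther from the gene start (0.472). The cause was not tested. Same-numbered libraries were not shown to be pairs: their deviations in regions per gene correlated at 0.0113 across 11790 genes. With a replicate block, in which labels moved only within a replicate number, the differences were the same, at 4.25, 8.82, 17.0 and 4.72 percentage points, 5.50 bases and −0.142, and the smallest p allowed was 0.5.

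Counts of exonic regions depended on the peaks that entered. For H3K18bu alone, H4K12bu alone and both marks they were 2236, 4238 and 1174 with the 100000 strongest rows, 3022, 6450 and 2127 with the summit in the exon, and 3389, 6590 and 2602 away from all transcript starts. With q below 0.01 those of H4K12bu alone fell to 4448 and those of both marks to 2470, since fewer rows of H4K12bu replicate 2 then entered. Leaving out 1 library gave 3641 to 11917, 9110 to 23711 and 5063 to 6045, because a mark then rested on 1 library. Without an H3K18bu replicate, the regions of H3K18bu alone (11917 and 11106) outnumbered those of H4K12bu alone (9110 and 9199). The exonic share of the kept regions was higher for H4K12bu alone than for H3K18bu alone in every setting, by the least without H4K12bu replicate 1 (10.8% against 7.53%). In H4K12bu replicate 2, a median pileup of 7 limits which weak regions could be listed.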

Other observations

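Where exons were dense, intron-only tiles were covered less than tiles with a coding exon by both marks. In 1 kb tiles with 10 or more exons of protein-coding genes within 5 kb, H3K18bu regions covered 2.57% and 2.20% of tiles with a coding exon and 1.01% and 0.877% of intron-only tiles, and H4K12bu regions covered 9.48% and 4.88% against 2.51% and 1.83%. There were 13070 tiles with a coding exon and 2074 intron-only tiles, with a median GC content of 55.7% and 48.8%. This contrast was not separated from GC content. In the tiles of like GC content above, H3K18bu covered the intron-only tiles more. In intron-only tiles with 0 exons within 5 kb, H3K18bu regions covered 2.75% and 2.54% and H4K12bu regions 2.60% and 2.04%. These values were examined after those of the exons and are given as a description.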
